A study of Homo sapiens with 6 samples.

Results

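The cytosolic chaperonin CCT, also called TRiC, is built from 8 related but distinct subunits, and the genes encoding them are TCP1, CCT2, CCT3, CCT4, CCT5, CCT6A, CCT7 and CCT8. The 8 genes were found by matching the transcript identifiers of the count files to gene symbols of the GENCODE annotation, and they are 8 of 37339 matched transcripts. All 8 were among the 9929 transcription units (TUs) with a PRO-seq level above 10 TPM and an RNA-seq level above 1 TPM, of which 8733 were mRNAs. TPM is a read count divided by the length of the TU and scaled to a common library total, so levels of different genes can be set side by side.

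Untreated K562 cells were sampled with 4 libraries of total RNA and 2 of PRO-seq. K562 is a human line derived from chronic myelogenous leukemia, here grown in RPMI-1640 medium with fetal bovine serum. PRO-seq counts engaged RNA polymerases along a gene and was taken as the level of transcription, whereas RNA-seq after rRNA depletion gave the steady-state level of RNA. The ratio of RNA-seq TPM to PRO-seq TPM is a unitless relative half-life, given here against the median mRNA. It assumes a steady state. According to the paper, the PRO-seq signal also depends on the elongation rate. Differences in elongation rate between the subunits were not tested. The paper also reports that previously published libraries gave less variable half-lives than these. According to the methods all libraries came from cells of the same flask, so SDs and p-values measure technical spread and not differences between cultures. RNA-seq replicates 1 and 3, and 2 and 4, were close pairs. The chi-square of their counts over TUs, divided by its degrees of freedom, was 1.12 within either pair, where sampling noise alone gives about 1, and between 1.74 and 2.11 across the pairs. SDs over the 4 RNA-seq libraries therefore rest on 2 close pairs.

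CCT consists of stacked rings in which every subunit occupies its own fixed place, and a folding protein is enclosed in the cavity while ATP is bound and hydrolysed. Actin and tubulin are its best known clients. TCP1, CCT2, CCT4 and CCT5 sit on the side of the ring that binds ATP tightly, and CCT3, CCT6A, CCT7 and CCT8 sit on the side that binds it weakly. An equimolar complex needs its 8 proteins in equal number, and the question addressed here is how far the genes were matched in transcription, in RNA and in the ratio between them.

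The common ancestry of the subunits is visible in the coding sequence around the ATP site. The lines give 45 bases of each coding strand from the GENCODE transcripts on GRCh37, and the capitals mark the 5 codons that begin glycine, aspartate, glycine, threonine, a signature of the nucleotide pocket.

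TCP1: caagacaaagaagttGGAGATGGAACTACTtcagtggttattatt
CCT2: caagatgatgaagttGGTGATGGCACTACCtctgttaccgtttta
CCT3: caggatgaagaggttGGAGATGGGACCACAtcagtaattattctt
CCT4: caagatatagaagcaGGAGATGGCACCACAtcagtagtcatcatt
CCT5: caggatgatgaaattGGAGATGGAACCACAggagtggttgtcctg
CCT6A: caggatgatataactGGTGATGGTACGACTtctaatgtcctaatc
CCT7: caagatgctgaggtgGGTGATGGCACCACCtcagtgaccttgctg
CCT8: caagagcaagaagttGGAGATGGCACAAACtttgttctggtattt

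The fifth codon of the marked run encodes threonine in 7 subunits and asparagine in CCT8. Among the 28 pairs of subunits, between 24 and 35 of the 45 bases were identical (median 29.5), and between 10 and 14 of the 15 bases in capitals. No window of 75 bases, the length of an RNA-seq read, was shared between the exons of any pair of subunits, so reads that match a subunit exactly are not divided among the 8 genes. The stretch lies in exon 3 of TCP1, exon 5 of CCT2, exon 5 of CCT3, exon 4 of CCT4, exon 3 of CCT5, exon 3 of CCT6A, exon 4 of CCT7 and exon 4 of CCT8 in the canonical transcripts. It is part of the counted exons of every subunit except CCT6A, whose counted transcript lacks that exon.

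One transcript was counted for each gene, and for CCT3 it differed from the canonical transcript in a way that sets its values. The counted CCT3 transcript (chromosome 1, 156288661 to 156337650, minus strand, GRCh37) has 8 exons with 842 exonic bases, and the canonical transcript has 14 exons with 1977 exonic bases. The counted transcript begins 29567 bp upstream of the canonical start and joins its own first exon to the shared second exon. The 2 lines show the last 15 bases of each first exon in lower case and the first 15 bases of the shared exon in capitals, since this junction is what separates the transcripts at the 5′ end.

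CCT3 counted transcript: accgagcctggcagtGCCAGAACACAAAGC
CCT3 canonical transcript: cagtgctcgtgctcaGCCAGAACACAAAGC

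Of the 47990 bases counted for PRO-seq in CCT3, 29067 lay upstream of the canonical start. Only 36.7% of the canonical exonic bases of CCT3 and 39.4% of the bases counted for PRO-seq lay in the part common to both transcripts. CCT3 values are therefore given on the counted length and, with all of its counts assigned to that common part, on the shared length. For the other 7 subunits the shared part held 100% of the bases counted for PRO-seq and at least 94.8% of the canonical exonic bases. Their values depended less on this choice. On the shared length the log2 relative half-life rose most for CCT7, from 4.39 to 4.53, and for CCT8, from 3.20 to 3.32. The RNA-seq level of CCT7 rose from 1159 to 1274 TPM.

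The upstream sequence of CCT2 and CCT3 is shown. Their gene records have no coding gene starting within 1000 bp on the other strand. The same holds for CCT8, whose window is not shown. The CCT3 window marks the canonical start, which lies inside the counted span. The gene TSACC on the other strand does start 978 bp from that canonical start, inside CCT3. Both lines give the 200 bases before the start listed by RefSeq on GRCh38.p14, in the direction of the gene, and the listed start equals the canonical GENCODE start. CCT2 is chr12:69585259-69585458 on the plus strand, and CCT3 is chr1:156338293-156338492 on the minus strand. Capitals mark matches, on either strand, to the letters CCAAT (the CCAAT box), GGGCGG (the GC box) and CCGGAAG (an ETS-type motif).

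CCT2 upstream: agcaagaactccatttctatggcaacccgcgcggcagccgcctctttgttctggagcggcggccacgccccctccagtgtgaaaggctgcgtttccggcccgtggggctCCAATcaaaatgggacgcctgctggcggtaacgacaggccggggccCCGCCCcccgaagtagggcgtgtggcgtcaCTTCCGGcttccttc
CCT3 upstream: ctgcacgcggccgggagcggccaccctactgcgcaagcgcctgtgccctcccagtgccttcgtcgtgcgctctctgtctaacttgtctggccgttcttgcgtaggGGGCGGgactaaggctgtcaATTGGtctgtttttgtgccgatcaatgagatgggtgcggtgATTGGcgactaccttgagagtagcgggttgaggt

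RefSeq windows were found for 7 of the 8 subunits, all except CCT6A, and for 6 of these a window lies at the canonical start. The CCT5 window belongs to another listed start and holds the beginning of the CCT5 reading frame, so it was not counted. CCAAT and GGGCGG each occurred in 4 of the 6, namely TCP1, CCT2, CCT3 and CCT8, whereas 32.7% and 43.9% of the 27305 genes with a window held them. CCGGAAG occurred in CCT2 alone (9.32% of all genes), and GAANNTTC, the core of the heat shock element, in a second CCT2 window further downstream (5.53% of all genes). CACGTG (6.74% of all genes), TATAAA (10.5%) and TGACGTCA (1.95%) were in none of the 6, which says only that these letters are not in these 200 bases.

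Transcription of the subunit genes was high but unequal, with a 3.64-fold range between the highest and the lowest PRO-seq TPM. On the side of the ring that binds ATP tightly, TCP1 stood at 269 and 261 TPM in PRO-seq replicates 1 and 2 and CCT5 at 255 and 244 TPM. CCT4 followed at 230.2 and 239 TPM, and CCT2 was lower than these at 154 and 152 TPM. The replicates of each of these genes differed by less than the distance of CCT2 from the others, and the levels of CCT5 and CCT4 could not be separated, since their mean log2 difference of 0.087 was about as large as its SD over the 2 libraries (0.085).

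On the other side of the ring the extremes of all 8 genes were found. CCT8 had the highest level of all, 293 and 303 TPM, and CCT6A stood at 184 and 195 TPM. CCT7 reached only 89.4 and 82.3 TPM, and CCT3 had the lowest level on its counted length, 86.9 and 76.8 TPM. Every subunit was transcribed above most mRNAs, at percentiles between 74.4 (CCT3) and 97.3 (CCT8) of the 8733 mRNAs. On the shared length CCT3 stood at 207 TPM, between CCT6A and CCT4, and CCT7 then became the lowest. The summed counts behind these values ranged from 797 (CCT7) to 2565 (CCT8), which limits the precision of a PRO-seq value to a counting error of between 2.79% and 5.01% per library. The CV over the replicates was between 1.01% (CCT2) and 8.67% (CCT3), so the CCT3 replicates differed by more than their counting error of 3.12%.

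Steady-state RNA of all 8 genes was among the most abundant, between percentiles 97.8 (CCT4) and 99.3 (TCP1) of the mRNAs, and spanned a 2.93-fold range. TCP1 had the highest level, 1903, 1965, 1908 and 1989 TPM in RNA-seq replicates 1 to 4. CCT8 came next at 1739, 1762, 1729 and 1809 TPM. CCT3 followed on its counted length at 1583, 1582, 1571 and 1554 TPM. The libraries of these 3 genes did not overlap, and the order was the same on the shared lengths, with 1941 TPM for TCP1, 1911 TPM for CCT8 and 1825.5 TPM for CCT3.

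CCT2 stood at 1460.5, 1478, 1501.5 and 1506 TPM, and CCT5 at 1296, 1291, 1292 and 1293 TPM, the narrowest spread of all with a CV of 0.161%. That CV is below the counting error of CCT5, 0.831% per library, so it does not measure how steady the gene is. CCT7 followed at 1174.5, 1149.5, 1158 and 1152.5 TPM. On the counted lengths CCT6A and CCT4 were below the other 6 subunits in every library. CCT6A had 861, 895, 863 and 896 TPM, and CCT4 had 659.55, 668, 668 and 653 TPM. The order of the 8 genes was the same in all 4 RNA-seq libraries, and the smallest step in it, from CCT3 to CCT2, had a mean log2 difference of 0.081 with an SD of 0.032 over the 4 libraries. The CVs were at most 2.21% (CCT6A), beside counting errors of at most 1.49%. With all exons of each gene as the length, CCT4 (1130 TPM) and CCT6A (1121.5 TPM) were close to CCT7 (1274 TPM) and above CCT3 (666 TPM), so their place at the bottom depends on the counted length. The libraries are bulk samples, so the fraction of cells with an RNA and its amount per cell cannot be told apart.

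**Figure D1:**
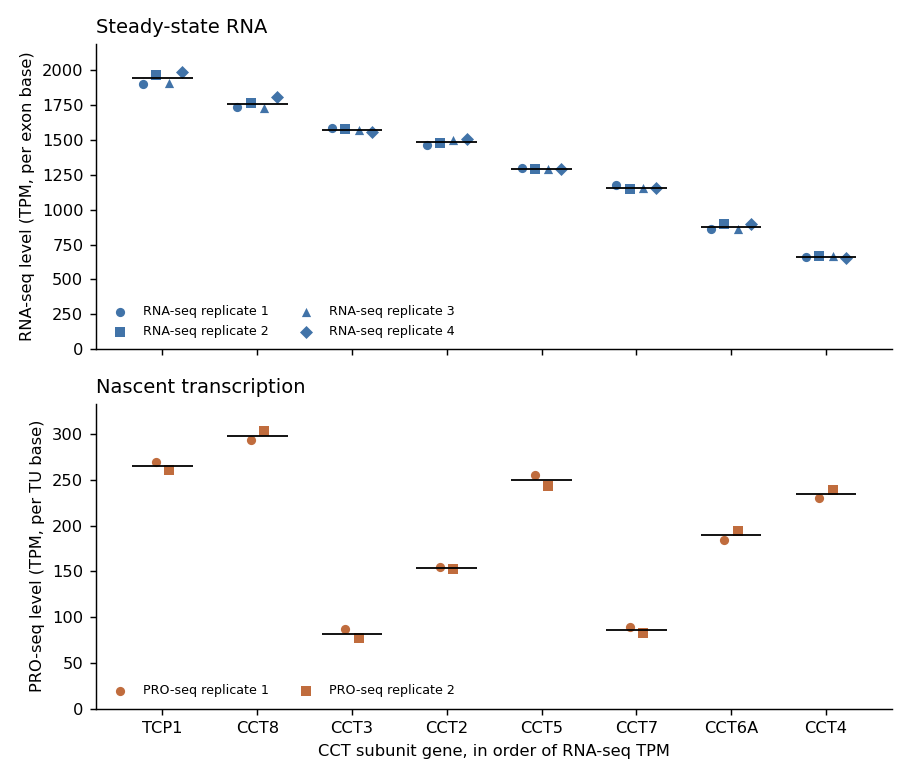
PRO-seq and RNA-seq level (TPM) of each CCT subunit gene in every library; the upper panel shows the 4 RNA-seq libraries, the lower panel the 2 PRO-seq libraries, and the short lines are the means. RNA-seq levels descend from TCP1 (mean 1941 TPM) to CCT4 (mean 662 TPM) with little scatter, whereas PRO-seq levels do not descend in the same order and are lowest for CCT3 and CCT7.

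The 2 assays ranked the genes differently. CCT4 ranked above the middle of the 8 in transcription and last in RNA, and CCT3, CCT2 and CCT7 ranked higher in RNA than in transcription. If the 8 genes had equal levels, each would hold 12.5% of their sum. CCT4 held 15.1% of the PRO-seq sum and 6.16% of the RNA-seq sum, or 10.5% of the latter with all exons of each gene as the length. CCT7 moved the other way, from 5.51% of the PRO-seq sum to 10.8% of the RNA-seq sum. CCT2 went from 9.84% to 13.8%, and CCT3 went from 5.25% to 14.6% on its counted length but only from 12.3% to 16.2% on the shared length. TCP1, at 17.0% and 18.1%, kept nearly the same share.

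CCT5, CCT6A and CCT8 held smaller shares in RNA than in transcription. Their shares were 16% and 12% for CCT5, 12.2% and 8.18% for CCT6A, and 19.1% and 16.4% for CCT8. Across the 8 genes Pearson's r between log2 PRO-seq TPM and log2 RNA-seq TPM was 0.013 and Spearman's rho was 0.33. On the shared length these were 0.16 and 0.52. These correlations describe 8 genes that share the same libraries and carry no test. Over the 8733 mRNAs the same coefficients were 0.57 and 0.55.

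**Figure D2:**
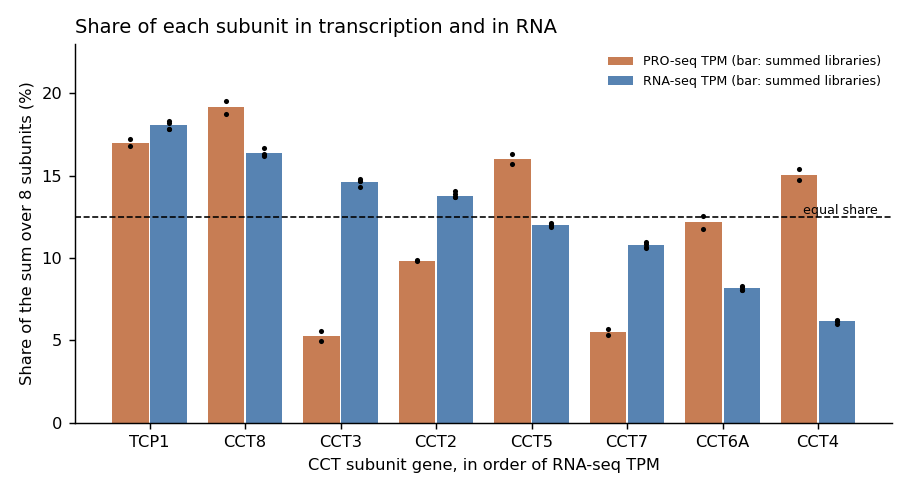
Share (%) of each CCT subunit in the sum of the 8 genes, for PRO-seq and RNA-seq TPM; bars give the summed libraries, dots the single libraries, and the dashed line the equal share of 12.5%. CCT4 drops from 15.1% in PRO-seq to 6.16% in RNA-seq, and CCT7 and CCT3 hold larger shares in RNA-seq than in PRO-seq.

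All 8 subunit mRNAs had a longer relative half-life than the median mRNA, with a median of 10.2-fold (3.35 on the log2 scale, between 3.31 and 3.39 over the 8 combinations of an RNA-seq and a PRO-seq library). The reference median matters more than the libraries: with no TPM thresholds, and so a wider set of mRNAs, every subunit was over 0.6 higher on the log2 scale (CCT5 at 3.67 in place of 3.01). In the quasi-likelihood test of edgeR, adjusted by the method of Benjamini and Hochberg over 9929 TUs, 8 of 8 lay above the median mRNA, and 40.4% of all TUs tested lay above it. For a difference of more than 2-fold the count was again 8 of 8, beside 21.5% of all TUs. With each close pair of RNA-seq libraries summed to 1, it was 8 of 8 above the median mRNA as well, with edgeR adjusted p between 2.3e-27 and 3.4e-22.

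CCT3 had the longest relative half-life on its counted length, 29.9-fold above the median mRNA (log2 4.90 ± 0.049, SE; edgeR adjusted p = 5.4e-36). On the shared length it was 13.7-fold above (log2 3.77 ± 0.049), more than 1 log2 unit lower. CCT7 was next at 21.0-fold (log2 4.39 ± 0.063; edgeR adjusted p = 3.2e-35), and CCT2 followed at 15.1-fold (3.92 ± 0.055; edgeR adjusted p = 2.7e-35). On the counted lengths these 3 had the lowest transcription of the 8 subunits.

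TCP1, the subunit after which the complex was first named, had a relative half-life of 11.4-fold (log2 3.51 ± 0.053; edgeR adjusted p = 1.2e-34). CCT8 reached 9.18-fold (3.20 ± 0.046; edgeR adjusted p = 2.2e-34). CCT5 and CCT6A reached 8.07-fold (3.01 ± 0.049) and 7.22-fold (2.85 ± 0.057), with edgeR adjusted p of 1.2e-33 and 2.3e-31. CCT4 was the least stable of the 8 by this measure, at 4.39-fold (log2 2.13 ± 0.047; edgeR adjusted p = 2.1e-29), although it still stood at percentile 90.3 of the mRNAs. All steps in this order held in 8 of 8 combinations of libraries, the smallest being CCT5 over CCT6A (mean log2 difference 0.16, SD 0.084). The combinations share libraries and are not independent.

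**Figure D3:**
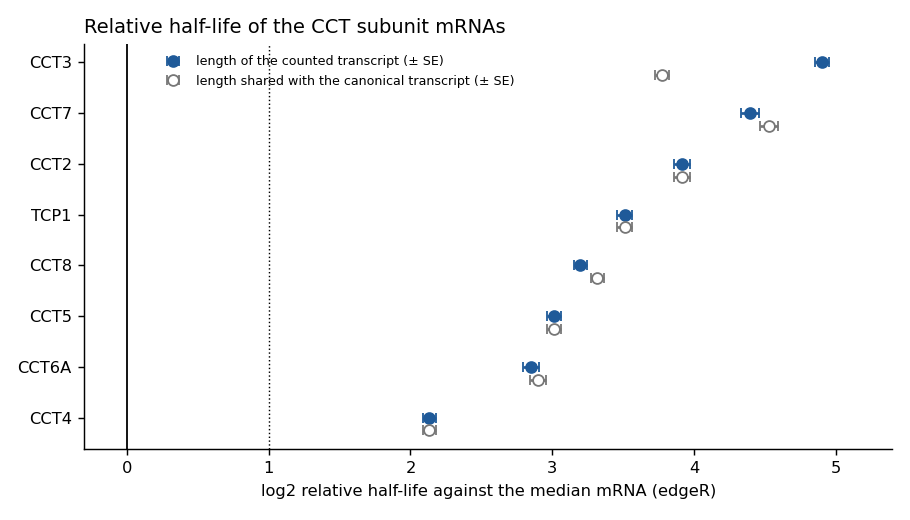
Log2 relative half-life of each CCT subunit mRNA against the median mRNA (line at 0; dotted line at 2-fold), as fitted by edgeR with its SE, on the length of the counted transcript (filled) and on the length shared with the canonical transcript (open). All 8 lie above the 2-fold line, and CCT3 moves from 4.90 to 3.77 when the shared length is used while CCT4 stays lowest at 2.13.

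The place of CCT4 and CCT7 did not depend on which transcript length was used. CCT4 was lowest and CCT7 was among the highest 2 on the counted lengths, on the shared lengths, with all exons of each gene (2.75 and 4.38) and with the whole gene span for PRO-seq (2.07 and 4.39). With counts scaled to library size and no length at all, CCT4 (2.30) and CCT3 (2.28) were lowest and TCP1 (4.61) and CCT7 (4.47) highest. CCT3 ranged from 2.28 without length to 5.11 with the whole gene span, so its rank within the complex is not determined by these counts. With all exons of the gene, its RNA-seq level was 666 TPM, the lowest of the 8.

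On the counted lengths, RNA levels of the subunits were more alike than their transcription or their relative half-lives. The SD over the 8 genes was 0.52 for log2 RNA-seq TPM, between 0.52 and 0.54 in single libraries. It was 0.73 for log2 PRO-seq TPM (0.70 and 0.76 in the 2 libraries). For log2 relative half-life it was 0.89, between 0.85 and 0.94 over the combinations of libraries. The variance of RNA (0.275) was smaller than that of transcription (0.528) and than that of half-life (0.793), and transcription and half-life had a negative covariance of −0.523 that offset their variances.

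Part of such a covariance is arithmetic, since PRO-seq TPM is the divisor of the relative half-life. With transcription from PRO-seq replicate 1 and the half-life from replicate 2, Pearson's r over the 8 genes was −0.79, and −0.82 with the replicates exchanged, and Spearman's rho was −0.57 both ways. Pearson's r was −0.66 and −0.70 without CCT3, and −0.62 and −0.70 with shared lengths. Spearman's rho was −0.36 without CCT3 and −0.48 with shared lengths, the same in both exchanges. For 8728 mRNAs Pearson's r was −0.033 and −0.041. Exchanging replicates removes only the error of a single PRO-seq library. Both replicates measure the same PRO-seq level, which stays the divisor, so the arithmetic link remains. With RNA nearly uncorrelated with transcription (Pearson's r 0.013), a negative coefficient follows from the division. The replicates also share the TU length, so an error of length remains in both terms. The coefficients are given without a test.

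How much more alike RNA was than transcription rested on CCT3. Without CCT3 the SDs were 0.55 for RNA, 0.62 for transcription and 0.74 for half-life, and with shared lengths they were 0.55, 0.57 and 0.73. With the exons of the whole gene the SD of RNA was 0.48 and that of half-life fell to 0.49. Without any length correction the order turned, with an SD of 0.64 for RNA counts and 0.60 for PRO-seq counts. For mRNAs as a whole, on the counted lengths, the SDs were 2.05 for RNA, 1.24 for transcription and 1.68 for half-life.

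Other complexes of fixed composition were described the same way. Prefoldin, the hexamer that delivers unfolded actin and tubulin to CCT, had SDs of 1.19 for RNA, 0.97 for transcription and 1.57 for half-life over its 6 genes. The 20S proteasome core, a barrel of paired rings, had SDs of 1.31, 1.11 and 1.49 over the 12 of its 14 genes that passed the TPM thresholds. On the counted lengths the CCT genes were closer together than either in all 3 measures, which is a description with no test. A negative covariance of transcription and half-life was not particular to CCT. It was −0.986 in prefoldin and −0.874 in the 20S core, beside −0.523 in CCT. Counted transcripts of prefoldin and the 20S core were not compared with the canonical ones. How far their SDs rest on transcript length was not tested. The summed level of the 8 CCT genes was also stable between libraries, from 10676 to 10851 TPM in RNA-seq and 1553 and 1562 TPM in PRO-seq.

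**Figure D4:**
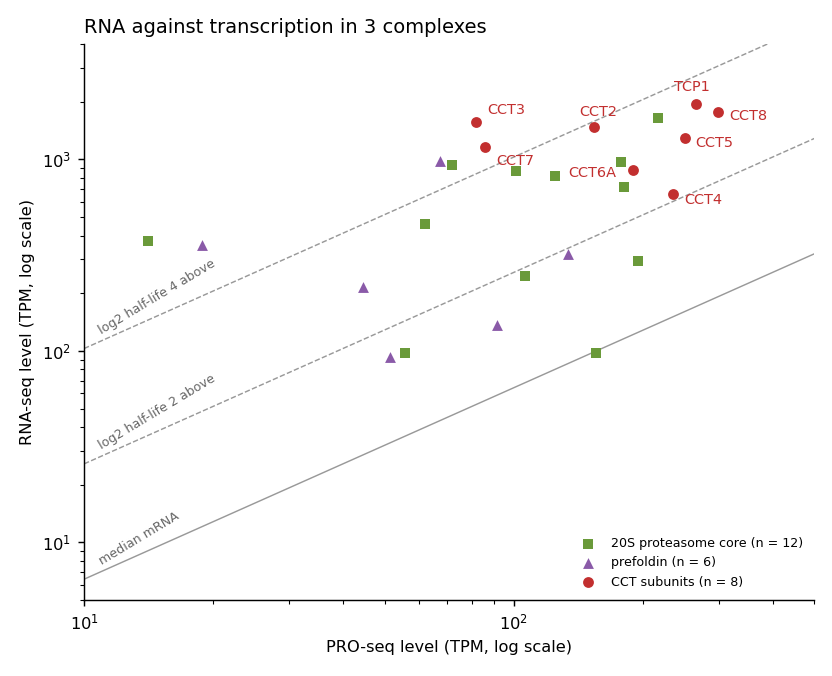
RNA-seq against PRO-seq level (TPM, both axes logarithmic, libraries summed) of the genes of CCT, prefoldin and the 20S proteasome core; the solid line marks the relative half-life of the median mRNA and the dashed lines log2 values 2 and 4 above it. The 8 CCT genes lie between 662 and 1941 TPM in RNA-seq and spread from 81.8 to 298 TPM along the PRO-seq axis. The same RNA-seq range also holds PFDN5 (985 TPM) and several 20S genes, up to PSMB1 (1637 TPM). On the counted lengths the other complexes are more scattered on both axes.

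The partners of CCT, prefoldin and the phosducin-like cofactors, lay above the median mRNA as well. The 20S core and the mitochondrial chaperonin are given for comparison. The counts that follow are to be read beside the 40.4% of all TUs above the median mRNA. They rest on counted transcripts that were not compared with the canonical ones. In prefoldin 6 of 6 genes were above in the same edgeR test, from PFDN6 (log2 1.22 ± 0.091) to VBP1 (4.88 ± 0.085), with a median of 2.41. The phosducin-like cofactors PDCL, PDCL3 and TXNDC9, which bind CCT and modulate folding, were 3 of 3 above, with a median of 2.01. Of the 20S core, 11 of 12 were above (median 3.22), with PSMB6 highest at 5.37 ± 0.46 on only 10 PRO-seq counts, and PSMB2 at −0.03 ± 0.049 was not separated from the median mRNA (edgeR adjusted p = 0.53). HSPD1 and HSPE1, the chaperonin and co-chaperonin of mitochondria, were above at 4.40 ± 0.082 and 5.07 ± 0.33, the latter on 19 PRO-seq counts.

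On the counted lengths, the relatives of CCT that are not part of the common ring looked different. CCT6B, the testis form of the zeta subunit, had only 29 RNA-seq and 312 PRO-seq counts in all libraries, corresponding to 3.26 and 15.9 TPM, against 879 and 189 TPM for CCT6A. Its relative half-life lay below the median mRNA (log2 −1.64 ± 0.29, edgeR adjusted p = 2.7e-07). MKKS (−0.99 ± 0.095) and BBS12 (−0.70 ± 0.17), chaperonin-like proteins that assemble the BBSome of the cilium, also lay below, so 3 of 3 that passed the thresholds did, beside 50% of all TUs. Of 5 chaperonin-like genes listed, 4 were matched, and a further transcript was excluded from this list by its identifier. CCT8L2, an intronless relative, had 2 RNA-seq counts and did not pass. The counted transcripts of these relatives, 654 exonic bases for CCT6B, were not compared with the canonical ones. How far their values rest on length was not tested.

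Genes for client proteins were mixed. Of 22 clients listed, 20 passed the thresholds, 15 lay above the median mRNA (40.4% of all TUs did) and 5 below (50% of all TUs) by edgeR's test, with a median of 0.77. On the counted lengths the beta and gamma actins stood apart, ACTG1 at 3.47 ± 0.070 and ACTB at −1.24 ± 0.058. ACTG1 had 599 PRO-seq counts at 94.4 TPM and ACTB 1296 at 1356 TPM, so the length counted for ACTG1 was much longer. Counted transcripts of the clients were not compared with the canonical ones. How far this contrast rests on length was not tested. TUBA1B, an abundant alpha tubulin, stood at 1.58 ± 0.054. ACTG1 was the highest of the clients on the counted lengths.

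The mRNAs nearest to the centre of the 8 subunits (medians of 1385 TPM in RNA-seq and 211 TPM in PRO-seq) were COX5B, PSMB1, RPS4X, PRDX1 and EIF3K, at distances between 0.20 and 0.37 in the plane of the log2 levels. They were the nearest of 8725 mRNAs compared. Their RNA-seq levels ranged from 1376 TPM (RPS4X) to 1786 TPM (EIF3K) and their PRO-seq levels from 177 TPM (RPS4X) to 216 TPM (PSMB1).

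Processed copies of the subunit mRNAs are scattered over the genome and can take reads. Windows of 75 exonic bases with an exact match elsewhere made up 6.75% of CCT8, 1.49% of TCP1, 1.22% of CCT6A, 0.870% of CCT5 and 0.0869% of CCT4, and none were found for CCT2, CCT3 and CCT7. The copy CCT8P1 on chromosome 1, inside FMO5, had 3555 RNA-seq counts and a level of 158 TPM, equal to 7.71% of the counts of CCT8, and was listed at 0 in PRO-seq. The other copies held far fewer counts, the most being 258 for CCT5P1, 147 for TCP1P3 and 125 for CCT7P1, none of them with a PRO-seq count.

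CCT6P3, a duplicated copy of CCT6A on chromosome 7, differed from the copies named above in having more PRO-seq counts (719) than RNA-seq counts (234). Its RNA-seq count was 0.774% of that of CCT6A. CCT6P3 spans 64498732 to 64535091, whereas processed copies are short, CCT5P1 having 1618 exonic bases. Few of their bases remain for PRO-seq once 1000 bp are removed. How far the contrast rests on length was not tested. Whether reads of the copies came from the subunit mRNAs was not tested.

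Several subunits share a start region with another gene. A coding gene on the other strand began within 1000 bp of the start of 5 of the 8 (62.5%), compared with 13.3% of 20163 coding genes, all by the start of the gene record. By the canonical start of CCT3, with TSACC starting 978 bp from it inside the gene, the count would be 6 of the 8. The pairs by gene record were MRPL18 with TCP1 (109 bp), COMMD1 with CCT4 (53 bp), ATPSCKMT with CCT5 (32 bp), PSPH with CCT6A (81 bp) and PRADC1 with CCT7 (181 bp). The subunit had the higher level in each pair and in both assays. The partners ranged from 27 TPM (PSPH) to 531 TPM (MRPL18, a mitochondrial ribosomal protein) in RNA-seq, and from 8.78 TPM (COMMD1) to 59.7 TPM (MRPL18) in PRO-seq.

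No source used here names the strand setting of HTSeq, so reads of overlapping genes on opposite strands may not be separable. ACAT2 overlaps the end of TCP1 by 615 bp, at 337 TPM in RNA-seq. TSACC, a co-chaperone of a testis kinase, overlaps the gene record of CCT3 by 9682 bp and had 22 RNA-seq and 42 PRO-seq counts. An antisense RNA overlaps 17651 bp of CCT4 with 4 RNA-seq counts and 1 PRO-seq count. The annotation also places the small nucleolar RNAs SNORA20 and SNORA29 inside TCP1 and SNORA22 and SNORA15 inside CCT6A, which have no counts of their own in the matched transcripts.

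Depth and identity of the libraries were as follows. Counts on TUs ranged from 5732780 to 9002746 in RNA-seq, and were 6993816 and 7245632 in PRO-seq. The 10 erythroid genes chosen as K562 markers were all found in RNA-seq, from 13.2 TPM (HBZ) to 6287 TPM (HBG2). Of 10 genes chosen as markers of other blood or tissue cells 7 were matched, and 5 of these were at or below 0.483 TPM. PTPRC and EPCAM had 72.5 and 120 TPM, so neither sets K562 apart from other cells here.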

How the data were processed

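According to the labels and the methods, the authors trimmed reads with Cutadapt, aligned them to GRCh38 with HISAT2 and ran HTSeq, for PRO-seq without the 500 bp next to either TU end. The deposited values are raw counts per transcript, not normalized. No source used here names tool versions or the strand setting. The files give no coordinates. Lengths and positions came from GENCODE on GRCh37 by transcript identifier, which matched 37339 of 42371 transcripts (88.1%). The rest carried 2.80% to 3.69% of a library's counts. Between 66.5% and 88.6% of the records of a library were not assigned to a TU and were left out. Among them were records without a unique alignment, 24.5% to 28.0% of all records in RNA-seq and 2.73% and 2.79% in PRO-seq. Records of low alignment quality made up 21.6% and 20.6% in PRO-seq, and ambiguous records at most 1.65% of any library.

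TPM was computed from counts summed over replicates, on exon length for RNA-seq and on the span less 1000 bp for PRO-seq. The 9929 tested TUs are mRNAs, lincRNAs, antisense genes and pseudogenes past the TPM thresholds (PRO-seq 10, RNA-seq 1). They were fitted in edgeR 4.0.16 (R 4.3.3) with glmQLFit and glmQLFTest, TMM normalization, offsets for length, centring on the median mRNA and Benjamini-Hochberg adjusted p under 0.05. DESeq2 1.42.0 was an alternative. SEs are from the fitted information, with a quasi-dispersion of at least 1. Errors between cultures are outside the counting and replicate errors given, and reads carried no molecular identifiers. Windows of 75 bases were searched for exact matches in the GRCh37 genome. Upstream sequences are those of RefSeq on GRCh38.p14. Python 3.11.15 was used otherwise.

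Named are, by rule, the 8 subunits, their copies and CCT6B, genes that start within 1000 bp on the other strand or overlap a subunit, the highest and lowest genes of each list, and the 5 mRNAs nearest to the median subunit. ACTB, TUBA1B and MKKS were named after their values were seen. A listed gene is not reported here. Members and lists were chosen with earlier results of these data known, and lists were described by counts, medians and SDs without a test.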

Additional observations from a re-analysis of the deposited data

How the results depend on the processing

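All 8 subunits stayed above the median mRNA in every alternative fit, by edgeR with other settings and by DESeq2, among them the close RNA-seq pairs summed, each library left out, 500 bp in place of 1000 bp removed for PRO-seq and no TPM thresholds. In the 14 alternative fits, all of which use a length, CCT4 ranged from 2.12 to 2.79 and CCT3 from 3.77 to 5.56. Over all TUs, 4010 were above the median mRNA and 4961 below it. The counts were 6634 and 7596 with at least 1 summed count in place of TPM thresholds, where more TUs were tested, and 2138 and 2898 for a difference over 2-fold.

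The values over the 8 subunits depended on length. Without length, the median log2 half-life was 3.96, the RNA-seq SD was 0.640, the PRO-seq SD was 0.597, and the highest over the lowest level was 3.45 in RNA-seq and 3.22 in PRO-seq. With all exons of the gene, the median was 3.24 and the SDs were 0.484 for RNA-seq and 0.493 for half-life. With the whole gene span, the median was 3.32, the SDs were 0.791 for PRO-seq and 0.959 for half-life, and the PRO-seq ratio was 4.26. The following were added after seeing the data. On lengths shared with the canonical transcripts, the median was 3.41 and the SDs of RNA-seq, PRO-seq and half-life were 0.551, 0.573 and 0.727. Without CCT3 they were 3.20, 0.551, 0.618 and 0.738, and without CCT3 on shared lengths 3.32, 0.561, 0.618 and 0.767.

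RNA-seq and PRO-seq libraries share replicate numbers only. Deviations of same-numbered libraries had a correlation of −0.016, so the numbers were not taken as pairs. With the replicate number as a block, 8 of 8 subunits were above the median mRNA, CCT4 at 2.14 and CCT3 at 4.91, and 3915 TUs lay above and 4854 below. Depth limits PRO-seq most, where CCT7 rests on 797 counts.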
